A study of Mus musculus with 39 samples.

Results

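The comparison asks what Wnt3a adds to Activin A after 5 days of endoderm differentiation from mouse embryonic stem cells (ESCs): 3 arrays of cells given Activin A plus Wnt3a (the combined treatment) were set against 3 arrays of cells given Activin A alone. These 6 of the 39 arrays of the series were selected by the treatment and day in their labels. The 39 arrays form 13 groups of 3, which are undifferentiated ESCs and cells kept without growth factor, with Wnt3a, with Activin A or with both for 1, 3 or 5 days. The cells were the TCL-1 line, derived from 129/SvJae mice and kept on mitomycin C-treated mouse embryonic fibroblast feeders with LIF. Feeders were removed on gelatin, and the ESCs then grew on collagen in RPMI medium with B27 and sodium butyrate, as the labels name it. Activin A was given at 100 ng/ml in both groups compared, and Wnt3a at 50 ng/ml in the combined treatment. The control and Wnt3a groups of day 5, used for reference, had the same medium without Activin A.

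Each array held 650 miRNAs, of which 611 were mouse miRNAs, read in 1 colour. Activin A had 333, 333 and 314 mouse miRNAs detected on replicates 1, 2 and 3, and the combined treatment 309 or fewer on each array. The summed mouse miRNA signal was 116754, 102825 and 90542 in the combined treatment and 131756, 120748 and 119644 with Activin A, so the combined arrays were the dimmer ones as scanned. Replicate 3 of Activin A shared a slide with the 3 combined arrays, while its replicates 1 and 2 lay on another slide, so results are also given against the array of the same slide. The labels and methods do not say whether the 3 arrays of a group came from separate cultures, so the p-values measure only the spread between samples. In the deposited table of normalized values the columns of these treatments hold each other's arrays (6 of 6 at day 5). The labels of the scanner output were used, and every difference would change sign if those were the wrong ones. The paper gives mir-10a, mir-301b, mir-1896 and mir-546 as lower with both factors. It also names mir-340-3p and mir-340-5p, whose values are not given here. The paper describes its RT-qPCR of a subset, on other RNA, as close to its arrays, with fold changes usually larger on the arrays. With the scanner labels, mir-10a was undetected on the 3 combined arrays of day 3 and present with Activin A. At day 5 mir-301b, mir-1896 and mir-546 differed by -0.48, -0.93 and -0.98 (limma adjusted p = 0.0135, 0.088 and 0.205). The paper used these arrays and its RT-qPCR was not compared, so which labels are right was not tested.

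As background, Activin A acts through the Smad branch of TGF-beta signalling and takes the place of Nodal, the signal that drives gastrulating cells towards mesoderm and endoderm, while Wnt3a acts through beta-catenin. A miRNA represses transcripts by pairing with them through its seed, bases 2 to 8 of the mature strand, so miRNAs with a shared seed can reach shared targets. Many mouse miRNAs are made from clusters and move as units. Those of the Hox clusters lie between the Hox genes that give cells their position along the body axis.

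The mature sequences below are those of main miRNAs of the results, from RefSeq (mouse build GRCm38.p6, 17 of 17 names looked up matched, of which 16 are shown), 5′ to 3′, with the seed in capitals. Mir-375 and most miRNAs of the Sfmbt2 block are not shown, since the table used lacks their measured strands. The Hox cluster miRNAs come first, because their list had the highest median difference of those compared, and fall into 2 seed families. Of the 4 shown, mir-10a was not called.
mir-196a: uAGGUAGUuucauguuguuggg
mir-196b: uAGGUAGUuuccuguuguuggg
mir-10a: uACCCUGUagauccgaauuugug
mir-10b: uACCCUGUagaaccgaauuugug
Counted from 1 at the 5′ end, mir-196a and mir-196b differ at a single base, A12C from the former to the latter, and mir-10a and mir-10b likewise at U12A. Their genes sit at different Hox clusters: mir-196a is made from Mir196a-1, between Hoxb13 and Hoxb9, and from Mir196a-2, between Hoxc10 and Hoxc9. Mir196b lies between Hoxa9 and Hoxa10. Mir10a lies within the span of Hoxb3 and Mir10b within the spans of Hoxd3 and Hoxd4.

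Other miRNAs that rose are shown next. Mir-199a-5p and mir-199a-3p have different seeds and both rose, and mir-672 and mir-125b-5p share a seed with none of the others here.
mir-199a-5p: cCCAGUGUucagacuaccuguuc
mir-199a-3p: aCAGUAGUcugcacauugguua
mir-672: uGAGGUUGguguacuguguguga
mir-125b-5p: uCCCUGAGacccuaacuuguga
let-7e: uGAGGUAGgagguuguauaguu
mir-181c: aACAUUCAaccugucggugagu
Those that fell include both arms of the mir-9 hairpin, and mir-222 with mir-221, which share a seed and differ at 12 of 23 bases.
mir-9: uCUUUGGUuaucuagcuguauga
mir-9*: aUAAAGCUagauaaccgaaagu
mir-222: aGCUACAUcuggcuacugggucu
mir-221: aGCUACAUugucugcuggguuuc
mir-19b: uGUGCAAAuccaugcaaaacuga
mir-489: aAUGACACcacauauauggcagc

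With Wnt3a added, the Hox cluster miRNAs mir-196a, mir-196b and mir-10b, the mir-199 miRNAs and mir-672 rose 3- to 6-fold in the main normalization. Percentile scaling over miRNAs detected on all 39 arrays gave log2 rises of 1.37 for mir-196b, 1.51 for mir-10b and 1.30 for mir-199a-3p. It gave 1.29 for mir-199b*, 1.465 for mir-672, 2.10 for mir-196a and 2.17 for mir-199a-5p. After normexp none of them was called at 1.5-fold. A block of miRNAs made inside the gene Sfmbt2 rose together by less. The neural miRNA mir-9 fell by 1.00 on the log2 scale and its other arm, mir-9*, dropped to or near the limit of detection. Mir-222, mir-221 and mir-19b also fell. The miRNAs of undifferentiated cells and of epithelium, the mir-290 to mir-295, mir-302 and mir-200 groups, differed by 0.53 or less on the log2 scale in these normalized values.

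The test took in the miRNAs that 2 or 3 arrays of a group detected, in either group, and a miRNA was called at a limma adjusted p under 0.05. Of 332 tested, 82 were called (24.7%), 42 higher (12.7%) and 40 lower (12%) in the combined treatment. The change reached 1.5-fold in 35 (10.5%), 23 higher (6.93%) and 12 lower (3.61%), and 2-fold in 11. Counts of list members called, given below, are to be read beside these shares. The groups did not overlap for 127 miRNAs (38.3%), which include all 82 called. Levels are given as log2 normalized signal, with a floor of 2 on the signal scale, and differences as the combined treatment minus Activin A. Most miRNAs named below follow a rule fixed beforehand, while mir-10a, mir-17, mir-18a*, mir-18b, mir-22, mir-34a, mir-124, mir-143, mir-145, mir-205, mir-214, mir-466a-3p, mir-466f-3p, mir-466i, mir-467a*, mir-467b, mir-467f, mir-669a and mir-669c were picked after their values were seen. Over all 332 the median difference was -0.006. Scaling each array to its 75th percentile instead of quantile normalizing shifted that median to -0.10 or -0.12, depending on the miRNAs used, and the share of calls that were higher from 51.2% to 37.6% or 33.7%. Of the 35 at 1.5-fold, 30 were called in the same direction under all 5 other scalings tried, and of the 82, 54. Background correction of the spots by normexp, with an offset added, left 1 miRNA called at 1.5-fold, mir-1224, which is not among the 35.

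With slide as a block, where the estimate is by construction the combined mean minus that array, 40 of 332 were called (12%), 36 of them among the 82 and 23 among the 35. Replicate 3 of Activin A lay on the side of the combined treatment, relative to replicates 1 and 2, for 46 of the 82 and for 182 of all 332. The count of 82 was 17 in a fit of the 12 arrays of day 5, all among the 82, and 26 in a fit of all 39 arrays, 23 of them among the 82. Mir-196a, mir-196b, mir-10b, mir-199a-3p, mir-669f and mir-9 were not called in the fit of all 39 arrays, nor were mir-199a-3p, mir-669f and mir-9 in that of 12. The count of 82 fell to 50 without replicate 2 of the combined treatment and to 48 without replicate 1 of Activin A. In bulk RNA of this kind, fewer cells of a type and less RNA per cell cannot be told apart.

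**Figure D1:**
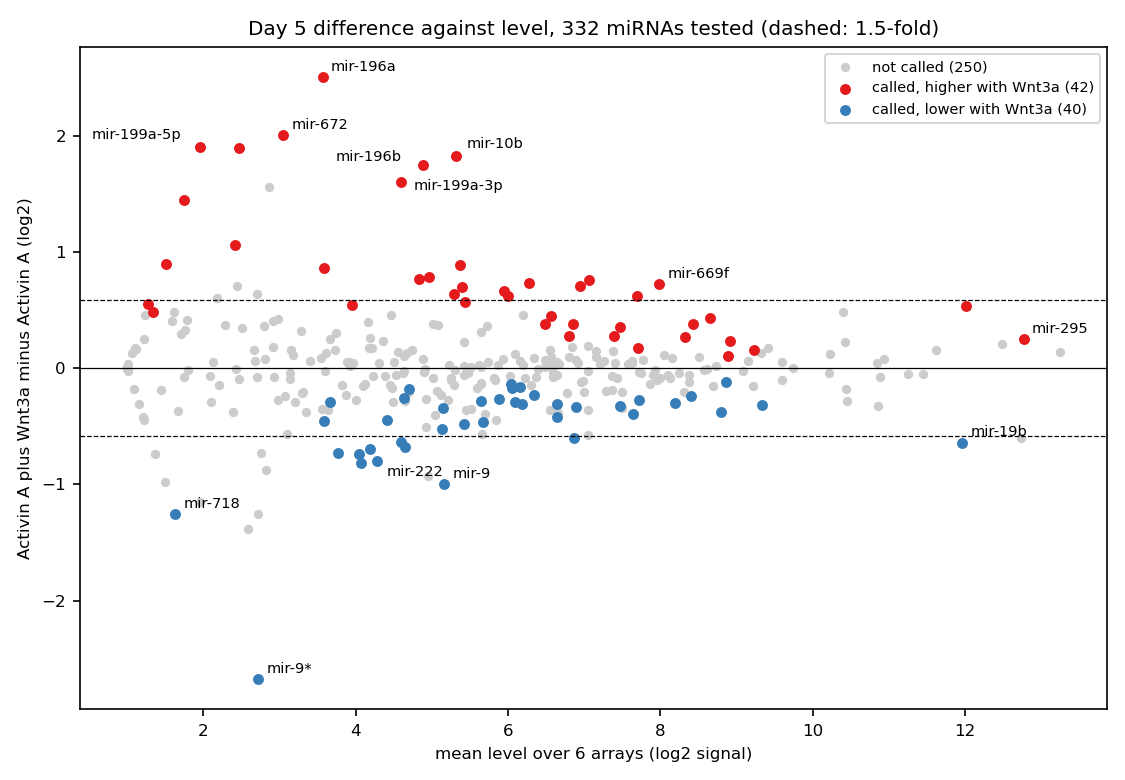
Difference between the combined treatment and Activin A at day 5 (log2, vertical) against the mean level over the 6 arrays (log2 signal, horizontal), 1 point per miRNA tested. Red points were called higher (42) and blue points lower (40), and the largest rises are at low and middle levels, and mir-295 and mir-19b are among the few called at high levels.

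The Hox cluster miRNAs had the largest rise of the lists compared. Mir-196a, which represses Hox transcripts, stood at 4.84, 4.81 and 4.81 in the combined treatment and at 2.25, 2.02 and 2.67 with Activin A. It was undetected on all 3 control and all 3 Wnt3a arrays of day 5. The combined arrays lay more than 2 log2 units above the highest Activin A array, which was the one of the same slide. The difference was 2.51 (SE 0.18, n = 3 a group, limma adjusted p = 0.00109), a 5.68-fold rise, and 2.15 against the same-slide array (adjusted p = 0.00444). As scanned, before any scaling, its signal was 51.5, 41.9 and 40.9 against 12.3 or less on each Activin A array.

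Mir-196b, with the same seed, gave 5.76, 5.78 and 5.74 in the combined treatment and 3.99, 3.93 and 4.13 with Activin A. Again the groups were far apart. The difference was 1.74 (SE 0.06, limma adjusted p = 0.000342), with 1.63 on the slide (adjusted p = 0.000489). It was undetected on the 3 control arrays and, with Wnt3a alone, detected on 3 of 3 at or near the floor (mean 1.05), with scanned signals of 5.9, 11.1 and 9.8.

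Mir-10b, from the Hoxd cluster, gave 6.14, 6.19 and 6.37 in the combined treatment and 4.41, 4.37 and 4.43 with Activin A. Unlike the mir-196 pair it was present in control cells, at a mean of 5.43, so Activin A alone stood below control and the combined treatment above it. It rose by 1.83 (SE 0.07, limma adjusted p = 0.000342, 1.80 on the slide, adjusted p = 0.007). Mir-10a, of the same seed, gave 2.63, 2.67 and 2.74 against 2.31, 2.13 and 2.57, a difference of 0.35 that was not called (95% interval 0.03 to 0.66, adjusted p = 0.112). Its control mean was 4.63. Of 7 list members on the array, 4 were tested and 3 called, all higher and all with slide as a block as well, with a median difference of 1.785 over the 4 (0.311 after normexp and 1.438 to 2.21 under the 4 other scalings), against -0.013 over all 289 miRNAs detected on all 6 arrays. The 3 others, mir-10a*, mir-10b* and mir-196a*, were undetected on the 6 arrays. The summed scanned signal of the list was 259.8, 223.3 and 213.8 in the combined treatment and 100.4, 89.8 and 94.3 with Activin A.

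**Figure D2:**
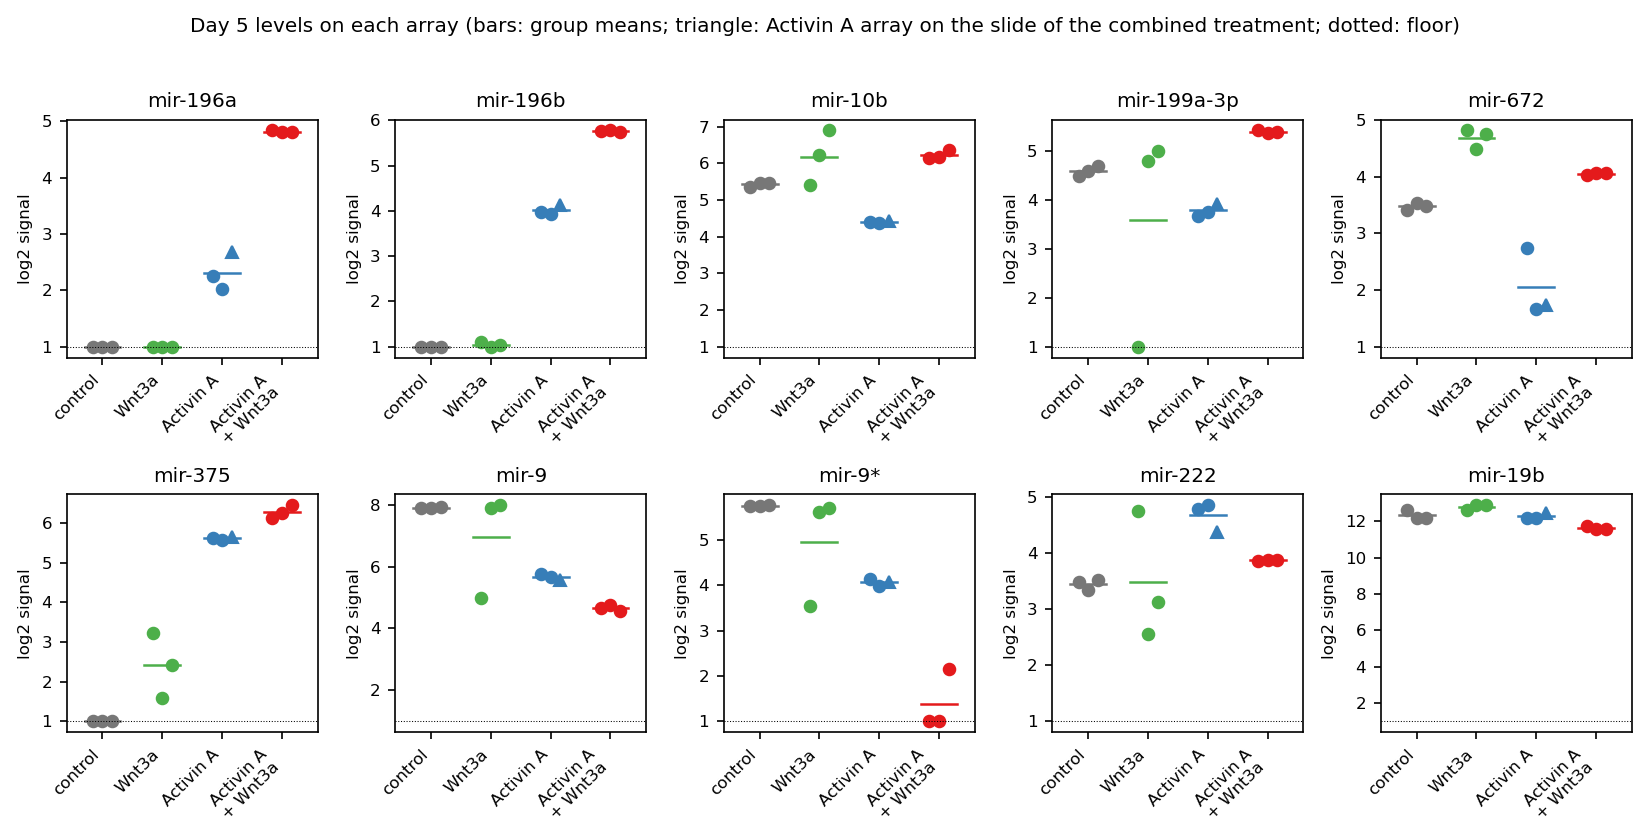
Levels of 10 miRNAs (log2 signal, vertical) on each day 5 array in the 4 groups (horizontal), with bars at group means, a triangle for the Activin A array on the slide of the combined treatment and a dotted line at the floor. Mir-196a, mir-196b and mir-10b are higher and mir-9, mir-222 and mir-19b lower on every combined array than on any Activin A array, and Wnt3a replicate 1 stands apart from its replicates for mir-9 and mir-199a-3p.

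The mir-199 hairpins, which are expressed in mesenchyme, rose from both arms. Mir-199a-3p gave 5.43, 5.37 and 5.40 in the combined treatment and 3.69, 3.77 and 3.93 with Activin A. No Activin A array came near the combined ones, and the rise was 1.61 (SE 0.07, limma adjusted p = 0.000394, 1.47 on the slide, adjusted p = 0.00157). Mir-199a-5p stood at 3.07, 2.83 and 2.80 with both factors and was undetected on the 3 Activin A arrays. With each undetected array put at its lowest detected level, which was the floor, it was 3.73-fold higher (limma adjusted p = 0.000394, on the slide 0.00737). This size depends on the floor. The difference of 1.90 was 1.499 under quantile normalization of log2 signals and 2.12 and 2.17 under the percentile scalings. With a floor of 8 the call of mir-199a-5p was lost. Mir-199b* gave 3.37, 3.20 and 3.66 against 1.10, 1.30 and 2.15, a rise of 1.89 (SE 0.32, adjusted p = 0.0154) and of 1.26 on the slide (adjusted p = 0.0449). Its call was kept in 3 of 6 fits that left out 1 array and lost with a floor of 8.

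Of the 17 fibroblast and mesenchymal miRNAs on the array, 11 were tested and 4 called higher, none lower. Besides the mir-199 miRNAs only mir-22 was called, by 0.28, and not on the slide (adjusted p = 0.0905). Their median difference over members detected on all 6 arrays was 0.149, and it turned to -0.014 and -0.031 under the percentile scalings, where 3 were called higher and 1 lower, and was 0.023 after normexp, where 5 were called higher. Mir-21, the most abundant member, differed by 0.22 (limma adjusted p = 0.215), by -0.08 and -0.10 under the percentile scalings, not called, and by 0.14 after normexp, where it was called, and mir-143 by 0.32 (adjusted p = 0.500). Mir-214 was detected on 1 combined array and mir-145 on 1 Activin A array. The summed scanned signal of the list was 2974, 2650 and 2391 in the combined treatment and 3177, 3062 and 2920 with Activin A. What part feeder cells or mesenchyme had in the rise of the mir-199 miRNAs was not tested.

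Mir-672, a miRNA of the X chromosome, gave 4.03, 4.07 and 4.07 in the combined treatment and 2.74, 1.66 and 1.74 with Activin A. Replicate 1 of Activin A lay about a log2 unit above the other 2, and still below the combined arrays. The rise was 2.01 (SE 0.32, limma adjusted p = 0.0135). On the slide it was 2.31 and not called (adjusted p = 0.0647). Control stood between the groups at 3.48 and Wnt3a alone above both at 4.69.

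The mir-297, mir-466, mir-467 and mir-669 miRNAs are copies of a repeat that fill an intron of Sfmbt2, an imprinted gene of the Polycomb group. Of 39 on the array, 21 were tested, 15 called higher (14 of them at 1.5-fold or more) and none lower. Their median difference was 0.705, and 0.566 or 0.549 under the percentile scalings, where 15 were called higher and 1 lower, and 0.161 after normexp. Hairpin positions, looked up in RefSeq after the values were seen, were set beside the differences without a test. Of 18 tested whose hairpins lie within Sfmbt2, 15 rose, with a median of 0.741 and differences from 0.45 to 1.56 over the 18. The 2 tested with hairpins elsewhere, mir-466i and mir-467f, differed by -0.21 and 0.03 and were not called, and on the slide by 0.13 and 0.25. Mir-466f-3p, with hairpins at both kinds of place, differed by -0.38 (limma adjusted p = 0.128), and by -0.68 on the slide, where it was called (adjusted p = 0.007).

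Values at high level show the size of the shift in the Sfmbt2 block. Mir-669f, at the highest level of the block, gave 8.40, 8.32 and 8.32 in the combined treatment and 7.58, 7.70 and 7.60 with Activin A. Mir-669a gave 7.36, 7.46 and 7.49 against 6.72, 6.64 and 6.68, and mir-467b 7.31, 7.31 and 7.26 against 6.58, 6.53 and 6.66. In each, every combined array lay above every Activin A array, with differences of 0.72, 0.76 and 0.71 (SE 0.05, 0.05 and 0.04, limma adjusted p = 0.000903, 0.00087 and 0.00087). On the slide these were 0.75, 0.76 and 0.63, all called. Other members at high level differed by less. Mir-466a-3p rose by 0.62, mir-467a* by 0.45, and mir-669c differed by 0.46 and was not called (limma adjusted p = 0.0741). The scanned signals summed over the 39 showed the shift before any scaling, at 2349, 2068 and 1810 against 1702, 1548 and 1530. With slide as a block, 13 of the 21 were called higher and 1 lower.

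Near the floor the block is less certain. Mir-466g had scanned signals of 8.3, 6.3 and 5.8 in the combined treatment and 7.2, 6.7 and 5.7 with Activin A, which overlap, yet a normalized difference of 0.90 (limma adjusted p = 0.00414). Percentile scaling over miRNAs detected on all 39 arrays left mir-466g at 0.19 (adjusted p = 0.169). Mir-466d-3p and mir-466h, at 1.44 and 1.06, fell to 0.63 and 0.55 under that scaling and were still called, while on the slide mir-466h was not (adjusted p = 0.0754). With a floor of 8 mir-466g, mir-466d-3p and mir-466h all lost their calls. After normexp mir-466h was not called either (0.05, limma adjusted p = 0.081). How far the probes tell these repeat copies apart is not given in the files.

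**Figure D3:**
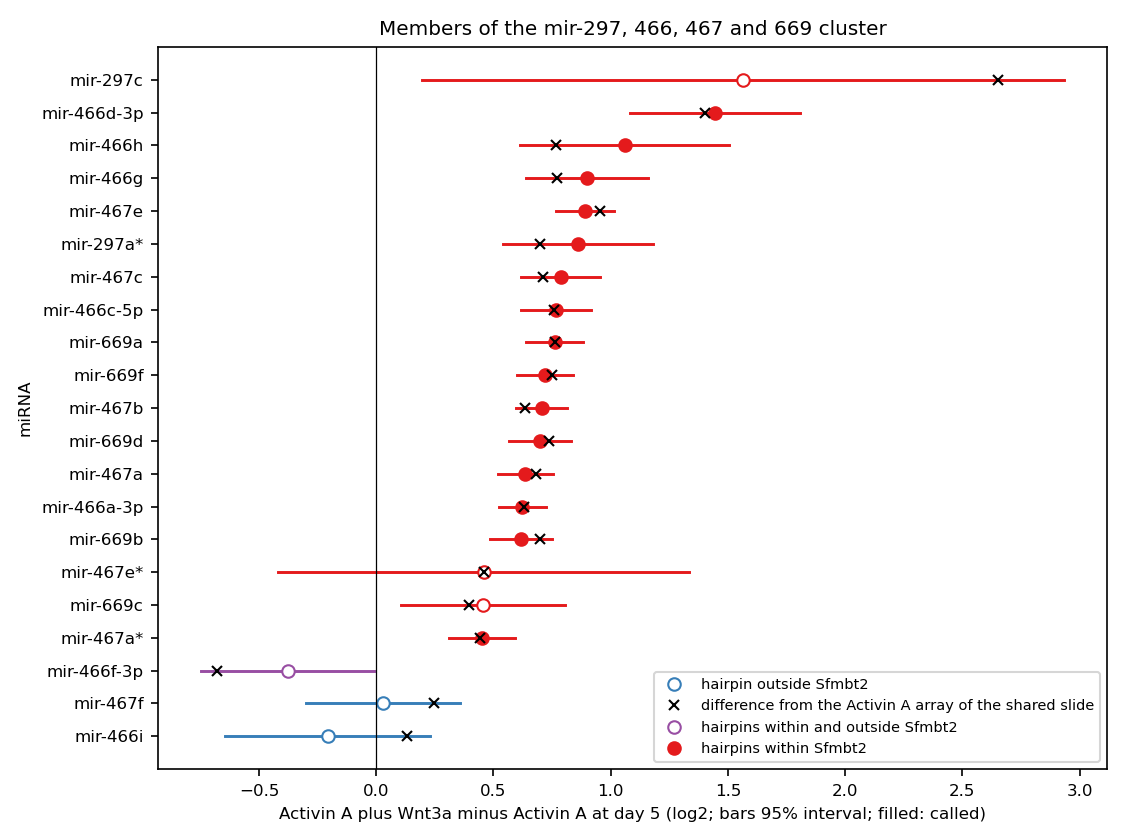
Difference between the combined treatment and Activin A at day 5 (log2, horizontal, with 95% intervals) for the 21 tested miRNAs of the mir-297, mir-466, mir-467 and mir-669 repeats (vertical); filled points were called, and crosses show the difference from the Activin A array of the same slide. The 15 called all have hairpins within Sfmbt2 and lie at 0.45 or above.

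The clusters of early embryonic cells had smaller differences, some of which depended on the scaling. Of 14 miRNAs of the mir-290 to mir-295 cluster, the main miRNAs of mouse ESCs, 13 were tested and 2 called, mir-292-3p (0.53, limma adjusted p = 0.0162) and mir-295 (0.25, adjusted p = 0.000931). On the slide mir-295 was called and mir-292-3p was not (adjusted p = 0.118). Mir-295 read 12.89 on each combined array and 12.64 on each Activin A array. Quantile normalization gives such equal values at the top ranks, and under percentile scaling over miRNAs detected on all 39 arrays neither was called (0.13 and 0.10). The median of the 13 was 0.16, and 0.052 after normexp, where 6 were called higher. Mir-294, the most abundant, differed by 0.14 (95% interval -0.20 to 0.49, adjusted p = 0.517), and by 0.23 after normexp, where it was called.

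Of the 8 miRNAs of the mir-302 and mir-367 cluster, which marks primed epiblast and early endoderm, mir-302a* was called (-0.27, limma adjusted p = 0.0188, on the slide -0.22, adjusted p = 0.156). This call was kept in 2 of 6 fits that left out 1 array. It was lost with replicate number as a block and in the fits of 12 and of 39 arrays. Mir-302a itself differed by -0.05 (95% interval -0.16 to 0.07), but by -0.39 and -0.41 under the percentile scalings and -0.24 after normexp, and was called in all 3. The median was -0.14, and under the percentile scalings -0.32 and -0.34, with 5 called lower. Mir-302a* stood well above control in both groups. It gave 5.74, 5.81 and 5.71 with both factors and 6.10, 5.99 and 5.97 with Activin A, against a control mean of 3.18.

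The mir-17 to mir-92 cluster and its paralogs, which promote proliferation, had 18 members tested, 6 called lower and none higher, with a median of -0.15 (-0.27 and -0.29 under the percentile scalings, with 11 and 9 called lower). Mir-19b gave 11.75, 11.59 and 11.59 in the combined treatment and 12.18, 12.18 and 12.48 with Activin A. The groups were apart by a smaller margin than for the Hox miRNAs. It fell by 0.64 (SE 0.11, limma adjusted p = 0.0144, -0.84 on the slide, adjusted p = 0.012), and by 0.32 under the same percentile scaling. The call of mir-19b was lost with replicate number as a block and kept in 4 of 6 fits that left out 1 array. The other 5, mir-17, mir-18a*, mir-18b, mir-20b* and mir-363, fell by 0.29 to 0.45. With slide as a block 2 of the 6 were called, mir-19b and mir-363.

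Mir-375 and the epithelial miRNAs were high in both groups, while most miRNAs of gut, liver and pancreas were undetected. Mir-375, known from pancreatic islets, was undetected on the 3 control arrays, and gave 5.63, 5.55 and 5.65 with Activin A and 6.12, 6.26 and 6.44 with both factors. The combined arrays were all higher, by 0.66 (SE 0.09, limma adjusted p = 0.00846), but on the slide, at 0.63, it was not called (adjusted p = 0.0777). Of the 12 gut, liver and pancreas miRNAs on the array 4 were tested. None of the 6 arrays detected mir-192, mir-194, mir-215, mir-122, mir-216a, mir-216b, mir-217 or mir-802. Mir-483, from an intron of Igf2, fell by 0.60 (adjusted p = 0.0287, on the slide -0.53, adjusted p = 0.203), a call kept in 2 of 6 fits that left out 1 array.

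None of the 7 tested miRNAs of the mir-200 family, which keep the epithelial state by repressing Zeb factors, was called, with a median of -0.042, which normexp turned to 0.004 with 1 called higher. Mir-200b differed by -0.02 (95% interval -0.13 to 0.09), while its control mean was 5.87 against 9.07 and 9.09 in the groups compared. Mir-205, another epithelial miRNA, fell by 0.29 (limma adjusted p = 0.0156, on the slide -0.33, adjusted p = 0.0754).

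MiRNAs of the let-7, mir-99 and mir-125 families, which accumulate as cells differentiate, rose where they were called. Mir-125b-5p gave 6.46, 6.59 and 6.88 in the combined treatment and 5.99, 5.90 and 5.85 with Activin A, a rise of 0.73 (SE 0.12, limma adjusted p = 0.0138). Both groups were far under the control mean of 8.46, so Wnt3a moved it back towards control. Let-7e gave 5.63, 5.72 and 5.83 against 5.16, 5.03 and 5.26, a rise of 0.57 (SE 0.08, adjusted p = 0.00989), here away from the control mean of 3.38. Of the mir-99, mir-100 and mir-125 list 5 of 9 were tested and 3 called, all higher (median 0.276), while under the percentile scalings 2 and 1 were called. Mir-125a-5p and mir-99b, which rose by 0.35 and 0.28, kept their calls in 1 of 6 fits that left out 1 array. With slide as a block none of the 5 was called, nor was let-7e (adjusted p = 0.0821 for mir-125b-5p and 0.0771 for let-7e). Of 16 let-7 family members 6 were tested and let-7e alone was called.

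The mir-23, mir-27 and mir-24 clusters had 6 of 9 members tested and 3 called, all higher, with a median of 0.236 (0.153 and 0.136 under the percentile scalings). Mir-23a rose by 0.44 (limma adjusted p = 0.0026), mir-27a by 0.26 and mir-24 by 0.24. On the slide mir-23a and mir-27a were called. In the mir-181 family mir-181c rose by 0.54 (SE 0.07, adjusted p = 0.00813, on the slide 0.42, adjusted p = 0.0418), from 3.66, 3.58 and 3.81 to 4.29, 4.21 and 4.17. Mir-181d, the most abundant, differed by 0.31 (adjusted p = 0.121). Mir-34a, a target of p53, rose by 0.38 (adjusted p = 0.00281, on the slide 0.45, adjusted p = 0.00989).

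Both arms of mir-9, a miRNA of neural progenitors, fell. Mir-9 gave 4.66, 4.75 and 4.57 in the combined treatment and 5.76, 5.65 and 5.58 with Activin A, against a control mean of 7.89. Every step from control to Activin A to the combined treatment was downward with no overlap. It fell by 1.00 (SE 0.07, limma adjusted p = 0.00109, -0.92 on the slide, adjusted p = 0.0124).

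Mir-9*, from the other arm, gave 4.13, 3.99 and 4.07 with Activin A and was detected on 1 combined array, replicate 3, at 2.15. It fell by 2.67 (SE 0.35, limma adjusted p = 0.00791), a size that depends on the floor, and was not called with slide as a block (adjusted p = 0.0721). Of 13 neural miRNAs on the array 7 were tested, and the arms of mir-9 were the 2 called. Mir-124, specific to neurons, differed by -0.09 (adjusted p = 0.614) and mir-218, the most abundant, by 0.04 (95% interval -0.11 to 0.19), or -0.06 and -0.08 under the percentile scalings. The list median was -0.092, and -0.15 and -0.17 under the percentile scalings, where 3 were called lower. Its summed scanned signal was 361.6, 304.8 and 289.2 against 489.4, 435 and 427.2.

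Mir-222 and mir-221, a pair from the X chromosome that represses the cell cycle inhibitor p27, fell together. Mir-222 gave 3.86, 3.88 and 3.88 in the combined treatment and 4.79, 4.86 and 4.37 with Activin A. The lowest Activin A array was the one of the shared slide. It fell by 0.80 (SE 0.14, limma adjusted p = 0.0162), and on the slide by 0.50 (adjusted p = 0.0092). The call was lost with replicate number as a block, in the fits of 12 and of 39 arrays, and in 3 of 6 fits that left out 1 array. Mir-221 gave 6.39, 6.43 and 6.46 against 6.90, 6.78 and 6.86, and fell by 0.42 (SE 0.04, adjusted p = 0.0026, on the slide -0.43, adjusted p = 0.0321). For mir-222 the control mean was 3.45, so Wnt3a brought it back towards the level of untreated cells.

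Mir-489 was undetected in control and Wnt3a cells and present with Activin A, at 4.37, 4.40 and 4.48, and with both factors, at 3.95, 3.71 and 3.37. All 3 combined arrays were lower, by 0.74 on average (difference -0.74, SE 0.16, limma adjusted p = 0.0308), though not called with slide as a block (adjusted p = 0.152). The same held for mir-421 (-0.82, slide adjusted p = 0.101), mir-452 (-0.68, slide adjusted p = 0.133) and mir-770-3p (-0.73, slide adjusted p = 0.249). With 1 array left out, the calls of mir-489 and mir-452 were kept in 2 of 6 fits and those of mir-421 and mir-770-3p in 1 of 6. Mir-718 was undetected on the 3 combined arrays and at 2.02, 2.34 and 2.41 with Activin A, at least 1.94-fold lower in these values (adjusted p = 0.00236, slide 0.012). A floor of 8 lies above all these levels of mir-718, so its call does not stand there. Mir-685 fell by 0.69 (adjusted p = 0.00249, slide 0.0279) and mir-712 by 0.52 (adjusted p = 0.00087, slide 0.012). Of the 44 miRNAs numbered from mir-680 to mir-721, 20 were tested and 5 called lower, against 12% of all 332. Of the 5, 4 were called with slide as a block. None of the 20 was called higher, and their median was -0.115. Under the percentile scalings their medians were -0.269 and -0.286, with 8 and 9 lower and 1 higher under the latter, and after normexp the median was -0.015.

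Other families split. In the mir-15 and mir-16 seed family mir-322 rose by 0.38 while mir-195 and mir-497 fell by 0.34 and 0.26, of which mir-195 alone was called on the slide, with a median of 0.041 over 8 tested that turned to -0.12 and -0.138 under the percentile scalings and to -0.007 after normexp. With 1 array left out, the calls of mir-195 and mir-497 were each kept in 1 of 6 fits. In the mir-130 and mir-301 family mir-301b and mir-130b fell by 0.48 and 0.24, neither called on the slide, and the median was -0.117 (-0.28 and -0.298 under the percentile scalings). Mir-130a differed by 0.08, but by -0.30 and -0.32, then called, under the percentile scalings. Of the mir-335 pair, mir-335-3p fell by 0.27 (not called on the slide, adjusted p = 0.208) and mir-335-5p differed by -0.03.

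**Figure D4:**
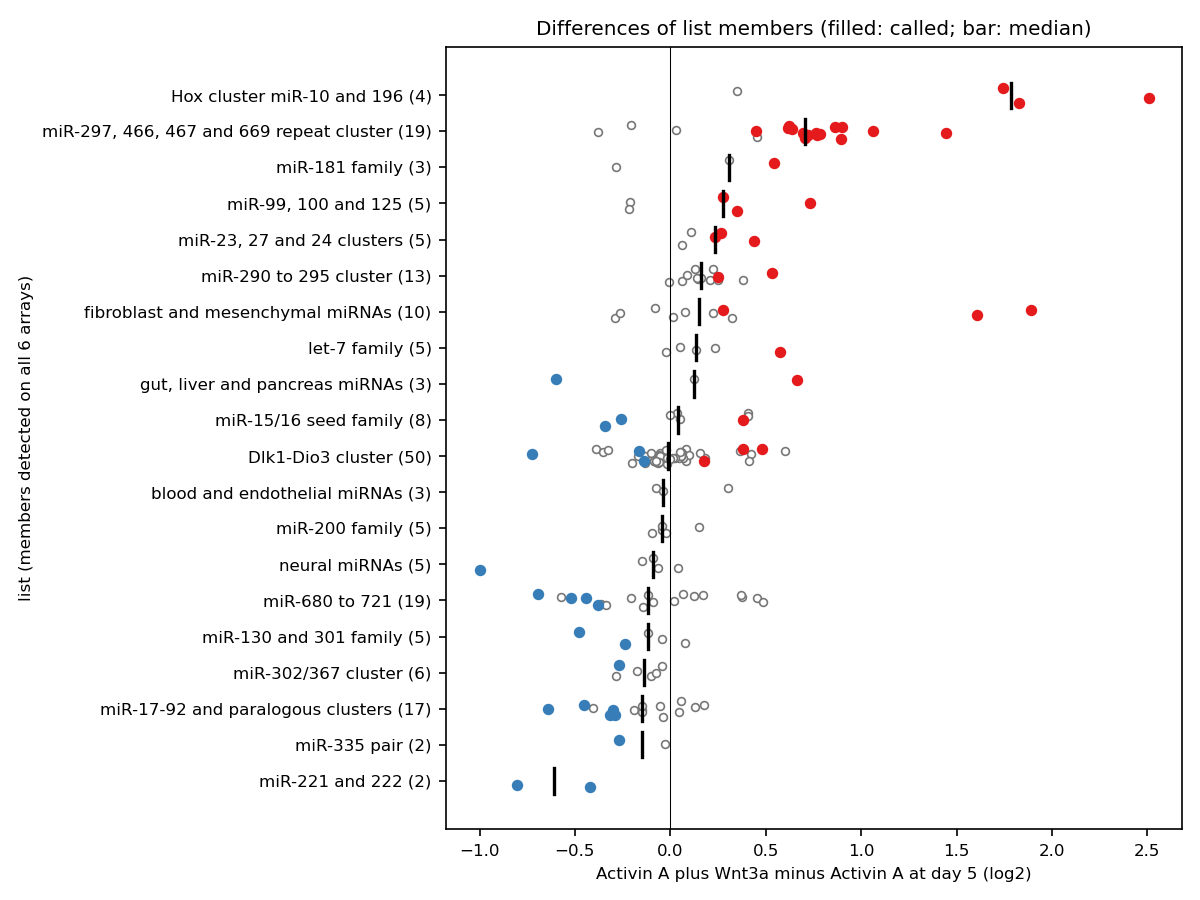
Differences between the combined treatment and Activin A at day 5 (log2, horizontal) for members of 20 lists that were detected on all 6 arrays (vertical, number of members in brackets), with filled points for those called and a bar at each median. The medians of the Hox cluster and repeat cluster lists lie to the right of 0 and that of the mir-221 and mir-222 pair to the left; percentile scaling turns the medians of the fibroblast and mesenchymal list and of the mir-15 and mir-16 seed family below 0.

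A pool of miRNAs was put into cells in the study. Of its 6 members 4 were called higher, mir-196a, mir-196b, mir-181c and let-7e. Mir-222 was called lower, and mir-338-5p differed by 0.16 (95% interval -0.74 to 1.05, limma adjusted p = 0.801), or by -0.10 and -0.12 under the percentile scalings, with 3.40, 2.71 and 2.13 in the combined treatment spread around 2.57, 2.49 and 2.71 with Activin A. A day 5 panel was also chosen in the study for its response to the factors given together. The list used here does not hold the whole panel. Of its 19 members 4 were called higher and 8 lower, and 7 were not called. Over all 332 tested, 12.7% were called higher and 12% lower. The study chose the panel on these samples and the pool from miRNAs it had identified itself, so neither is independent evidence of a direction.

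A second question is whether Wnt3a did the same without Activin A. The effect of Wnt3a with Activin A minus its effect without it (Wnt3a minus control at day 5, 3 arrays each) was called for 11 of 358 miRNAs tested (3.07%, 47 at an unadjusted p under 0.05). The day 5 Wnt3a arrays lay on 1 slide and the control arrays on another, so slide enters the effect of Wnt3a alone. With slide as a block, estimated from the 3 Activin A arrays, 5 were called. Wnt3a replicate 1 departed from its replicates, for instance at 4.97 against 7.88 and 7.98 for mir-9, and without that array 56 of 355 were called (15.8%). Of the 35 at 1.5-fold, 4 were called with it and 13 without it.

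Mir-196a was at the floor on all 6 arrays without Activin A, so the difference of effects repeats its own, 2.51, and adds no test of what Wnt3a does without Activin A. For mir-196b, undetected in control and at or near the floor with Wnt3a, the difference was 1.70 (limma adjusted p = 2.2e-06), a size that depends on the floor. It turned to -0.37 (adjusted p = 0.289) under percentile scaling over miRNAs detected on all 39 arrays, and was not called in the fit of all 39 arrays. The mean of mir-19b was 0.48 higher with Wnt3a alone than in control, a difference not tested, and the effects differed by -1.12 (adjusted p = 0.0309). That call was lost with slide or replicate number as a block, under percentile scaling and after normexp, and was kept in 5 of 12 fits that left out 1 array. For mir-466g the difference was 0.93 (limma adjusted p = 0.00293), or -0.016 with normexp background correction. Without Activin A mir-466g was at or near the floor (control mean 1.03, Wnt3a minus control -0.03). The 0.93 therefore nearly repeats its difference with Activin A, 0.90, and adds no test of what Wnt3a does without Activin A.

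Mir-9 stood at 7.88, 7.88 and 7.91 in control cells and, leaving out Wnt3a replicate 1, at 7.88 and 7.98 with Wnt3a, and its effects then differed by -1.04 (SE 0.09, limma adjusted p = 0.000307). With that array kept the difference was -0.05 (adjusted p = 1). Mir-199a-3p, undetected on that array, differed by 1.30 without it (adjusted p = 0.000455) and by 2.60 with it (adjusted p = 0.456). Mir-10b differed by 1.07 (adjusted p = 0.321) or, without that array, by 0.69 (adjusted p = 0.0782). It gave 5.40, 6.23 and 6.90 with Wnt3a alone, a wide spread. The median of the repeat cluster list with Wnt3a alone against control was 0.497 with all 3 arrays and 0.82 without replicate 1, against -0.045 and -0.086 over all miRNAs. For mir-669a the effects differed by 0.07 without that array (95% interval -0.09 to 0.23).

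The last comparison sets the effect of added Wnt3a at day 5 against the same effect at day 3, when the cells are on their way to endoderm. It was called to differ for 75 of 332 miRNAs (22.6%), among them 14 of the 35 at 1.5-fold. At day 3 the treatments lay on different slides, which were scanned on different dates, so slide could not be fitted here. Slide and scan date at day 3 cannot be told apart from treatment. The arrays of both treatments at day 5 shared the scan date of the combined arrays of day 3. Under percentile scaling over miRNAs detected on all 39 arrays the count was 121.

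Some differences were near in size on the 2 days. Mir-9 fell by 1.00 at day 5 and differed by -0.99 at day 3, and the change between days was -0.01 (95% interval -0.23 to 0.21). Mir-669a differed by 0.64 at day 3 and 0.76 at day 5 (change 0.12, 95% interval -0.03 to 0.26). The median of the repeat cluster list was 0.644 at day 3, but its most abundant member, mir-669f, went from 0.33 to 0.72 and was called to differ (change 0.39, adjusted p = 0.0124). Mir-375 had the larger difference at day 3, at 1.11 against 0.66 at day 5, and the change was not called (-0.44, 95% interval -0.84 to -0.05, limma adjusted p = 0.0998).

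Others appeared between the days. Mir-196a was undetected on the 3 Activin A arrays of day 3, and detected on 2 combined ones, at 1.99 on replicate 2 and at the floor on the other. Its effect grew by 2.18 (SE 0.36, limma adjusted p = 0.00397). Mir-199a-5p and mir-199b* were undetected on all 6 arrays of day 3, so the change of their effects, 1.90 and 1.89, repeats the difference of day 5. Mir-10b was already higher at day 3, at 4.70, 4.35 and 4.51 against 3.34, 3.20 and 3.32. Its effect grew by 0.59 (adjusted p = 0.0115), but changed by -0.18 under percentile scaling (adjusted p = 0.173).

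Mir-222 changed direction. At day 3 it gave 4.29, 4.62 and 4.66 in the combined treatment and 3.95, 4.02 and 3.66 with Activin A, so every combined array was higher there, and every one lower at day 5. The effect went from 0.65 to -0.80, a change of -1.45 (SE 0.21, limma adjusted p = 0.00214). Mir-302a* went the same way, from 0.52 to -0.27 (change -0.79, adjusted p = 3.31e-05), and mir-335-3p from 0.76 to -0.27 (change -1.03, adjusted p = 0.00109). Let-7e went from -0.20 to 0.57 (change 0.77, adjusted p = 0.00138) and mir-322 from -0.27 to 0.38 (change 0.65, adjusted p = 0.00109).

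Mir-10a parted from mir-10b at day 3. It was undetected on the 3 combined arrays of that day and at 3.32, 3.16 and 3.1 with Activin A, while at day 5 the groups lay near each other. Its effect changed by 2.54 (SE 0.14, limma adjusted p = 4.35e-06), a size that depends on the floor. At day 3 the combined cells thus held mir-10b, which was higher on every array, without detectable mir-10a.

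**Figure D5:**
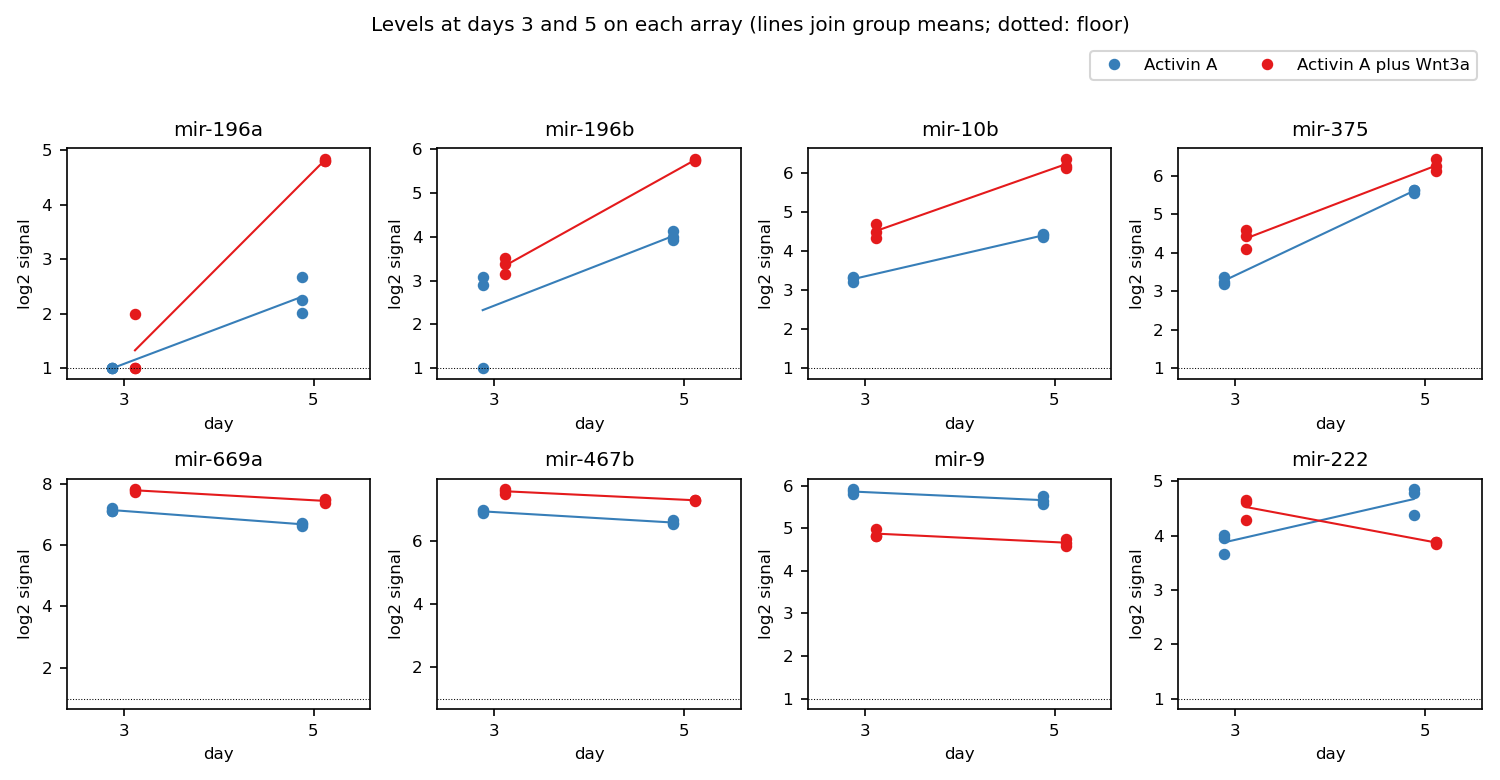
Levels of 8 miRNAs (log2 signal, vertical) at days 3 and 5 (horizontal) on each Activin A array (blue) and combined array (red), with lines joining group means and a dotted line at the floor. The distance between the lines widens for mir-196a, is alike for mir-669a, mir-467b and mir-9, and changes sign for mir-222; for mir-10b it widens in these values and narrows under percentile scaling.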

How the data were processed

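MiRNAs were measured on 39 Agilent 1-colour arrays of 650 miRNAs, 611 of them mouse. The deposited scanner files hold intensity values that were background-subtracted and summed over the probes of a miRNA (Feature Extraction, version 10.7.3.1 per the file headers), with 0.1 where a miRNA was not detected, and a detection flag. The deposited series table holds log2 values that the authors quantile normalized. It was used only for a check of its columns against the scanner files: 18 of 39 follow another array than their label, 6 of 6 in the day 5 pair compared here.

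Mouse miRNA signals were quantile normalized over the 39 arrays together with the other miRNAs, floored at 2 and taken to log2. MiRNAs detected on 2 or 3 arrays of at least 1 group were tested in limma 3.58.1 (R 4.3.3), with Benjamini-Hochberg adjustment and calls at an adjusted p under 0.05. The steps were tested on simulated data. For a group in which a miRNA was undetected, a bound was computed as the other group's mean level minus the lowest detected level on each undetected array, or the floor where lower. The difference of Wnt3a effects with and without Activin A was fitted on the 12 arrays of day 5, and that of day 5 against day 3 on the 12 arrays of the 2 treatments.

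The combined arrays detected 309 mouse miRNAs or fewer and the Activin A arrays 314 to 333. Median spot background was 35 to 37 on the 6 arrays, with 0 saturated spots. The median SD between replicates was 0.087 for Activin A and 0.10 for the combined treatment.

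Groups, comparisons, alternatives and the rule for named miRNAs were written before the data were examined, but with earlier results on these data known, as were the members of the lists. The rule took, of miRNAs called at 1.5-fold, detected on all 6 arrays and without overlap, the 8 with the largest rise and the 8 with the largest fall. It added called miRNAs undetected in a group by their bound, the 6 of the transfection pool, and from each list the most abundant member with up to 3 called members of largest difference, 61 miRNAs in all. Alternatives were 5 other scalings or background corrections, a floor of 8, other detection filters, larger sets of arrays in the fit, slide and replicate blocks, the one-way test of the methods, and leaving out each array. Positions and sequences are from RefSeq GRCm38.p6. Non-mouse miRNAs were not tested.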

Additional observations from a re-analysis of the deposited data

Results flagged for a closer look

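These differences are listed because the effect of adding Wnt3a differed between 2 settings by a direct test (limma, adjusted p under 0.05), on the log2 scale. Between cells with and without Activin A at day 5, the effect of Wnt3a differed by 2.51 for mir-196a, 1.70 for mir-196b, -1.12 for mir-19b and 0.93 for mir-466g. The calls for mir-19b and mir-466g held in 3 of 7 alternatives each. The value for mir-196a repeats its difference with Activin A, since it was undetected on all 6 arrays without it. The size for mir-196b depends on the floor and turned to -0.37, not called, under percentile scaling. That for mir-466g nearly repeats its difference with Activin A, 0.90, since it was at or near the floor without Activin A.

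Between day 5 and day 3, with Activin A present, the effect was higher at day 5 by 2.18 for mir-196a, 1.61 for mir-672, 1.90 for mir-199a-5p, 1.89 for mir-199b*, 0.59 for mir-10b, 0.76 for mir-466h and 0.39 for mir-669f. It was also higher by 0.77 for let-7e, 0.44 for mir-125a-5p, 0.48 for mir-292-3p, 0.25 for mir-295, 0.65 for mir-322, 1.25 for mir-299 and 0.46 for mir-154*. Under percentile scaling mir-466h was called the other way (-0.37) and mir-10b turned to -0.18, not called. The calls of mir-125a-5p, mir-292-3p, mir-295, mir-299 and mir-669f were lost there, and after normexp mir-299 turned to -0.0081. Of 5 alternatives mir-466h was called in 1, in that other direction, and mir-299 and mir-125a-5p in 2. With 1 array left out, mir-466h was called in 3, mir-299 in 2 and mir-125a-5p in 4 of 12 fits.

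The change from day 3 to day 5 was -1.45 for mir-222, -0.36 for mir-302a, -0.79 for mir-302a*, -0.39 for mir-335-5p, -1.03 for mir-335-3p and -0.21 for mir-363. It was -1.16 for mir-770-3p, -0.71 for mir-685, -0.92 for mir-452, -1.57 for mir-718, -0.66 for mir-483, -0.62 for mir-494, -0.80 for mir-1224 and -0.26 for mir-712. With 1 array left out, mir-335-5p, mir-494 and mir-712 were called in 2, mir-483 in 3 and mir-1224 in 4 of 12 fits. Treatment at day 3 cannot be told apart from slide or scan date. The sizes for mir-196a, mir-199a-5p, mir-199b* and mir-718 depend on the floor, since these miRNAs were undetected on arrays of at least 1 group.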

How the results depend on the processing

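The count of 82 called was 17 in a fit of the 12 arrays of day 5, 26 in a fit of all 39, 40 with slide as a block, 23 within the shared slide (3 arrays against 1, assumed to vary like the others), 40 with replicate number as a block, and 48 to 83 when 1 array was left out. Of the 82, 65 and 63 kept their call and direction under the percentile scalings, 75 and 76 under the other quantile normalizations and 66 after normexp. Replicate numbers were not used as pairs in the main fit. Deviations of same-numbered arrays from their group means correlated at -0.44, 0.14 and -0.53 over 289 miRNAs. Those of differently numbered arrays correlated at -0.46 to 0.58. The labels do not say whether same-numbered arrays share a culture, and these values cannot decide it. The count of 35 at 1.5-fold was 16, 21, 17 and 22 in the 12-array, 39-array, within-slide and replicate-block fits, 1 after normexp and 24 to 39 with 1 array left out.

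For the effects of Wnt3a with and without Activin A, the count of 11 was 56 without Wnt3a replicate 1, 5 with replicate number as a block, 3 for quantile normalization of log2 signals, 3 after normexp, 34 in a fit of all 39 arrays, and 3 to 56 with 1 array left out. With slide as a block, a choice made after seeing the data, it was 5. For day 5 against day 3, the count of 75 was 121 under percentile scaling, 13 in a fit of all 39 arrays and 52 to 85 with 1 array left out.

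These differences of named miRNAs, called in the main or the alternative setting, changed sign. For the combined treatment against Activin A, mir-130a went to -0.30 and -0.32 and mir-299 to -0.26 and -0.28 under the percentile scalings, and mir-299 to -0.0061 after normexp. For the effects with and without Activin A, mir-196b went to -0.37 under percentile scaling and mir-466g to -0.016 after normexp. For day 5 against day 3, mir-10b went to -0.18 and mir-466h to -0.37, called in that direction, under percentile scaling, and mir-466h to -0.00468 and mir-299 to -0.0081 after normexp. Across the scalings, uncalled differences that turned negative were mir-21 (-0.083 and -0.10) and mir-218 (-0.063 and -0.081) under the percentile scalings, mir-338-5p there (-0.10 and -0.12) and after normexp (-0.015), and mir-130a after normexp (-0.089). After normexp mir-200b, at -0.02, turned to 0.010. For none of these shifts in count or sign was it shown why, and the cause was not tested. Of the comparisons of named miRNAs with their alternatives, 895, 76 and 360 kept direction and side of the threshold for the 3 questions in this order, and 271, 16 and 112 kept direction without passing it. Signals near background limit what can be told: 26, 26 and 9 detected values lay at the floor on the Activin A arrays and 0, 0 and 1 on the combined arrays.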

Other observations

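Of the Dlk1-Dio3 cluster 67 miRNAs were on the array and 54 tested. Between the combined treatment and Activin A at day 5, 3 were called higher and 3 lower, with a median of -0.013. Over all 332 tested, 12.7% were called higher and 12% lower. Under the percentile scalings 1 of the cluster was called higher and 5 or 7 lower. Of 8 muscle miRNAs 1 was tested and not called (mir-133a, -0.18). Of 9 blood and endothelial miRNAs 3 were tested and none called (limma), with a median of -0.04, and mir-126-3p differed by -0.04.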
